A study of Mus musculus with 6 samples.

Results

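Blood clotting and clot removal depend on plasma proteins that are made mostly by hepatocytes, and the 33 genes described here encode these proteins and the vessel wall proteins that control them. The genes were chosen by name and known role, with no threshold on their values, but with earlier results of these data known. All 33 were rows of the deposited table of 20107 genes. They cover clotting factors, the 3 chains of fibrinogen, the kininogens, anticoagulants and the enzymes and inhibitors of fibrinolysis. Liver RNA was sequenced from 6 male wild-type C57BL/6N mice, littermates from Envigo, all aged 16 weeks. In the HFHC group, 3 mice had free access for 8 weeks, from 8 weeks of age, to a high-fat, high-calorie food with fructose together with a high-fructose drink. In the Chow group, 3 mice ate chow to the same age. HFHC libraries are replicates 1, 2 and 3 and Chow libraries are replicates 7, 8 and 9, each from a separate mouse per the labels. The only comparison in the design is HFHC against Chow.

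Clotting starts when tissue factor, the product of F3, meets factor VII, and it runs through a chain of proteases to thrombin, which cuts fibrinogen to fibrin. Several of the proteases, and the anticoagulants protein C, protein S and protein Z, need vitamin K for a modification that lets them bind membranes. Antithrombin and other serpins stop the proteases, and plasmin, made from plasminogen, dissolves the clot. In liver most of these genes are hepatocyte genes, whereas von Willebrand factor, factor VIII, thrombomodulin and tissue-type plasminogen activator are known as endothelial products.

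The libraries held 26767415 to 30871262 counts. Levels are CPM, counts scaled to a common library size, with edgeR's TMM factors, which ran from 0.9706 to 1.0216, and are given as mean ± SD with n = 3 per diet. A floor of 3 counts corresponded to 0.0954 to 0.114 CPM, which covers counting error only. A log2 fold change compares HFHC with Chow, positive where HFHC was higher, and is followed by its standard error (SE). A gene is said to have changed where its adjusted p was under 0.05 in the quasi-likelihood test of edgeR, adjusted by Benjamini-Hochberg over all 14896 genes tested. Intervals are 95% intervals of 1 gene's log2 fold change or fold, not widened for the number of genes. The 10 hepatocyte markers summed to 87625 to 89801 CPM in HFHC and 78574 to 98387 CPM in Chow, led by Alb. Of the 10, Cps1 and Tat passed as lower in HFHC and 0 passed as higher. Their median log2 fold change was 0.05, with 6 positive and 4 negative. Every HFHC library lay above Chow in 3 of the 10 and below in 3, against 13.5% and 14.3% over all genes. In bulk liver RNA, fewer cells of a type and less RNA per cell cannot be told apart.

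Per length of transcript, the 3 fibrinogen genes stood at the top of the set. Levels on this scale are TPM, counts divided by transcript length and scaled to the same sum in every library, computed from the length of the main coding transcript in GENCODE M21. In Chow, Fga stood at 3119 ± 189 TPM (SD, n = 3), Fgg at 2963 ± 282 TPM and Fgb at 1799 ± 137 TPM. Fga and Fgg did not differ beyond their spread, and Fga was the 42nd most abundant gene of liver on this scale. Plasminogen (Plg, 1477 ± 85.4 TPM), kininogen 1 (Kng1, 1402 ± 82.3 TPM) and prothrombin (F2, 1122 ± 18.2 TPM) came next, the first 2 of them within their spread. Antithrombin (Serpinc1) at 569 ± 18.4 TPM, C1 inhibitor (Serping1) at 547 ± 32.2 TPM and histidine-rich glycoprotein (Hrg) at 603 ± 39.2 TPM formed a middle tier with alpha-2-antiplasmin (Serpinf2) at 578 ± 67.7 TPM. Factor VII (F7, 88.9 ± 3.70 TPM), the serpin Serpina10 (84.1 ± 7.15 TPM), factor XI (F11, 71.9 ± 8.99 TPM) and protein S (Pros1, 38 ± 0.609 TPM) were the lowest of the 25 genes with at least 50 CPM. The other 8 genes, F8, Vwf, F3, Tfpi, Thbd, Plat, Plau and Serpina5, lay between 0.169 TPM for Serpina5 and 6.57 TPM for Tfpi in Chow. Together the 33 genes took 2.17% to 2.62% of all counts in a library.

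**Figure D1:**
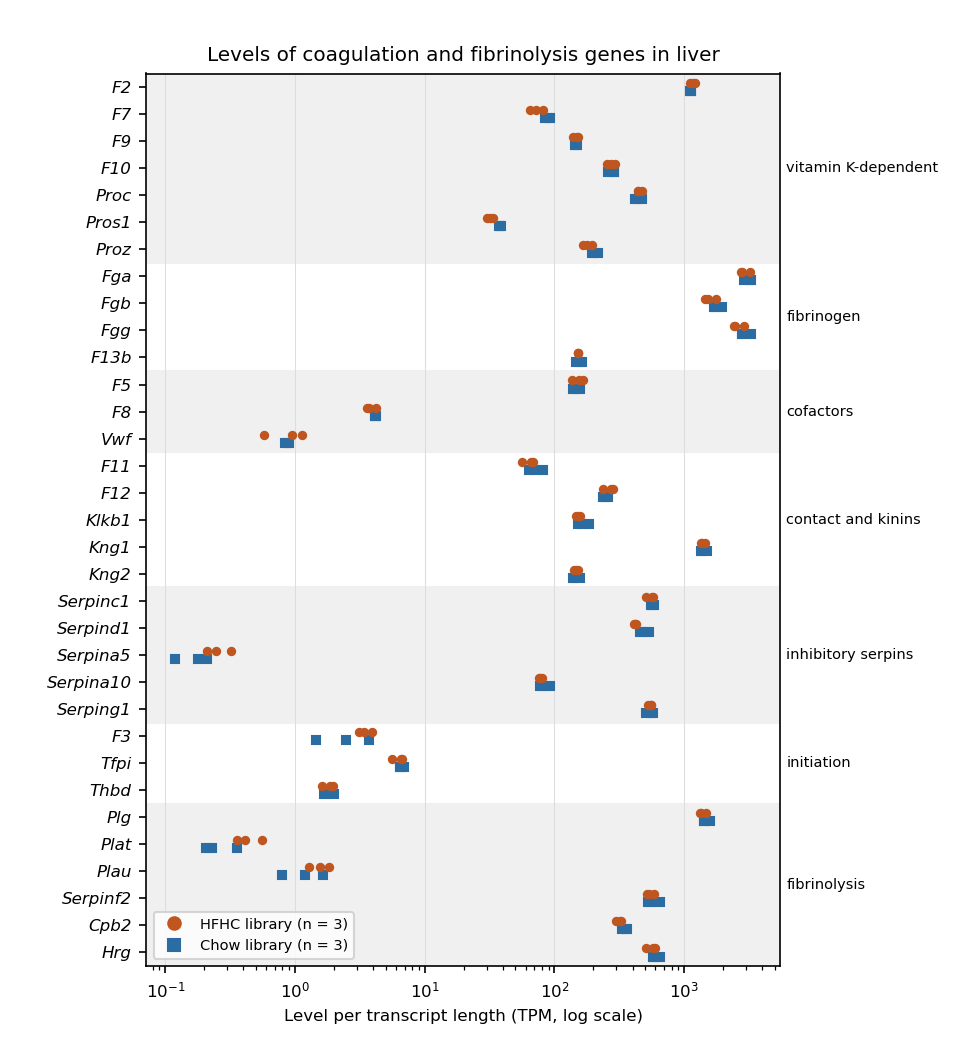
Level of each of the 33 genes in TPM on a log axis, with circles for the 3 HFHC libraries and squares for the 3 Chow libraries, grouped by role. Levels span from 0.169 TPM (Serpina5, Chow mean) to 3119 TPM (Fga, Chow mean), and for most genes the libraries of the diets lie together.

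Few genes of the set passed as different between the diets, which does not show that the others were unchanged. Of the 32 genes tested, Pros1 was lower in HFHC, none was higher, and 31 did not pass. DESeq2 and limma-voom also called none higher. Serpina5 did not pass the count filter. Over all genes tested 6.67% passed, 3.38% as higher and 3.30% as lower, and among genes with at least 50 CPM 12.5% passed, against 1 of the 25 members at that level. The median log2 fold change of the 32 genes was -0.10, against -0.0033 over all genes tested, and 26 of 32 were negative, against 7523 of 14896. At an unadjusted p under 0.05 there were 5 of 32, all lower in HFHC (F7, Pros1, Serpind1, Proz and Cpb2), where the share over all genes was 22.2%. In 9 of 32 genes the libraries of the diets did not overlap, and the share over all genes was 27.8%. By direction 8 of the 32 were lower and 1 higher in HFHC, where the shares over all genes were 14.3% and 13.5%.

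The intervals give a range for the fold of each gene, 1 gene at a time and relative to TMM scaling. In 29 of 32 genes the 95% interval lay within 1.5-fold in either direction, which held for 62.0% of all genes and for 83.7% of genes with at least 50 CPM. All 25 members with at least 50 CPM were among the 29, and over those 25 the outermost bounds were 0.680-fold (F7) and 1.17-fold (F12). The exceptions were F3, Plat and Plau, with 42 to 126, 8 to 24 and 29 to 73 counts a library and coefficients of variation between Chow mice of 43.2%, 28.4% and 33.1%. Thbd, with 96 to 130 counts and 10.7%, lay inside the bound.

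**Figure D2:**
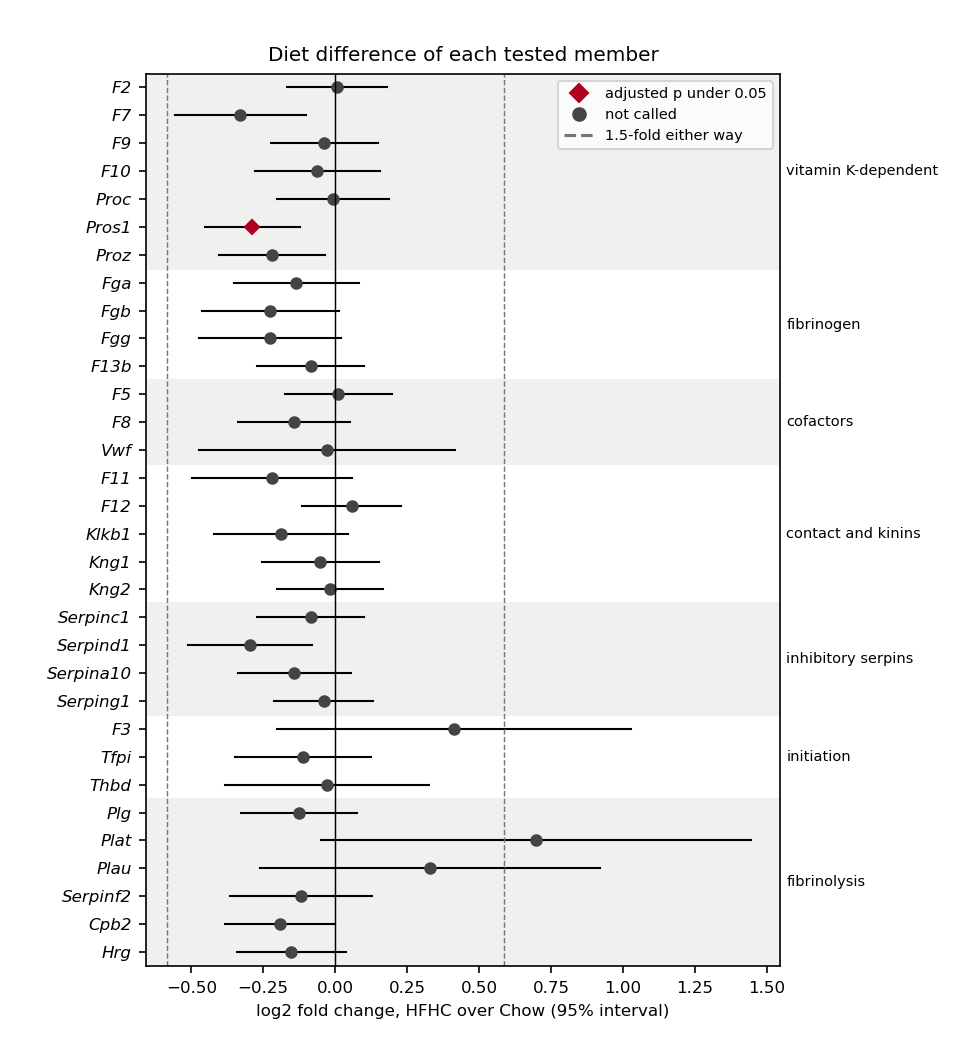
Log2 fold change, HFHC over Chow, of the 32 tested genes with 95% intervals, grouped by role, with dashed lines at 1.5-fold either way. Pros1 (diamond) is the only gene that passed at an adjusted p under 0.05, and the intervals of F3, Plat and Plau are the ones that cross a dashed line.

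Among the 7 vitamin K-dependent genes, Pros1 fell and the other 6 did not pass. Pros1 encodes protein S, the cofactor of activated protein C, and is found on the plus strand of chromosome 16, from 62854307 to 62929346 in mm10. Its levels were 61.0, 57.3 and 59.8 CPM in HFHC replicates 1, 2 and 3 and 73.0, 69.6 and 74.8 CPM in Chow replicates 7, 8 and 9. All HFHC libraries lay below all Chow libraries, with little spread within a diet. The log2 fold change was -0.29 ± 0.07 (SE, adjusted p = 0.0482), a fold of 0.819 with an interval from 0.731 to 0.918. The call was close to the threshold. It was lost whichever of the 6 libraries was left out (adjusted p = 0.0544 to 0.164), with upper-quartile factors (0.0703), with no count filter (0.0716) and after correction for GC content and length (0.0537), while the log2 fold change stayed between -0.31 and -0.26.

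F7, which encodes the protease that tissue factor activates, had the lowest log2 fold change of the set. It stood at 83.3, 65.8 and 79.1 CPM in HFHC against 99.7, 88.9 and 98.1 CPM in Chow. The diets did not overlap, and HFHC replicate 2 was the lowest library. The log2 fold change of -0.33 ± 0.10 did not pass (adjusted p = 0.0868), and it passed after correction for GC content and length (-0.44, adjusted p = 0.0333). Proz, for protein Z, which helps a serpin to inhibit factor Xa, stood at 341 ± 13.9 CPM in HFHC against 398 ± 24.6 CPM in Chow, again with no overlap (-0.22 ± 0.08, adjusted p = 0.150). F7, F10 and Proz lie side by side within 50 kb of chromosome 8 (13026034 to 13076026). F10, for factor X, had a log2 fold change of -0.06 ± 0.10 with overlapping libraries, and the differences between these neighbours were not tested.

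The remaining vitamin K-dependent genes sat at nearly equal levels in the diets. F2, for prothrombin, stood at 1322, 1263 and 1299 CPM in HFHC against 1316, 1264 and 1285 CPM in Chow. These libraries interleaved, and the interval of the fold ran from 0.891 to 1.13. Proc, for protein C, had a fold of 0.995 (interval 0.870 to 1.14) and F9, for factor IX, a fold of 0.974 (interval 0.857 to 1.11).

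The fibrinogen genes Fgg, Fga and Fgb lie within 42.1 kb of chromosome 3 (83007724 to 83049863 in mm10), with Fgb on the opposite strand to the others. Sequence just upstream of their starts (RefSeq, GRCm38.p6, the assembly called mm10) is shown because these neighbours are the most abundant genes of the set. Capitals mark matches, on either strand, to 4 short motifs of liver transcription factors: GTTAAT (HNF1 core), CAAAGTCC (HNF4), TTGCNNAA (C/EBP) and CTGGGAA (IL-6 response element). The matches printed do not overlap each other.

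Fga, chr3:83025903-83026075, plus strand: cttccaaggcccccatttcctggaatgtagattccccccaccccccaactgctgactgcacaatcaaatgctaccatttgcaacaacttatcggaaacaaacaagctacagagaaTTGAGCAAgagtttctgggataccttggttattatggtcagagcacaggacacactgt
Fgb, chr3:83049864-83050113, minus strand: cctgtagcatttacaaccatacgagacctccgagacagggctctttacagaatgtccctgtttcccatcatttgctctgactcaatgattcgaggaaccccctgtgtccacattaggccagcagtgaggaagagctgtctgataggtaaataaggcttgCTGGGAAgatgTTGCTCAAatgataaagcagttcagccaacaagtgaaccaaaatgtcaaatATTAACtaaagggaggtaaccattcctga
Fgg, chr3:83007474-83007723, plus strand: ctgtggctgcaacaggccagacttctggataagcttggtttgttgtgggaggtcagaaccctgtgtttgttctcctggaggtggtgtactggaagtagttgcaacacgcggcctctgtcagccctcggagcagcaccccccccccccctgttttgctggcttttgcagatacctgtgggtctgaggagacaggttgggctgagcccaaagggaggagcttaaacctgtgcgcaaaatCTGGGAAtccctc

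The stretch of Fga is 173 bases long and stops where GENCODE M21 begins its first exon, and those of Fgb and Fgg are 250 bases long. Fga held the C/EBP letters in the stretch shown, Fgb held the HNF1, C/EBP and IL-6 letters, and Fgg held the IL-6 letters near its start. Of the 33 genes, 24 matched the promoter table. For Tfpi, which has 2 entries, the one nearest the annotated start was used. Over the 250 bases upstream of the RefSeq start, which for Fga run past the stretch shown, the C/EBP letters occurred in 8 of these 24 genes (F11, F9, Fga, Fgb, Hrg, Klkb1, Kng2 and Serpina5) and in 9.55% of all 27025 promoters. The HNF1 letters occurred in 4 of 24 (F13b, Fga, Fgb and Proz) and in 6.52% of all, the IL-6 letters in 4 of 24 (F9, Fgb, Fgg and Tfpi) and in 9.08%, and the HNF4 letters in 0 of 24 and in 1.22%. A match is a description of letters in this window only.

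The fibrinogen chains did not change at the threshold. Fga stood at 4597, 3940 and 4194 CPM in HFHC against 4951, 4607 and 4423 CPM in Chow. Fgb stood at 3672, 3022 and 3463 CPM in HFHC against 4333, 3770 and 3777 CPM in Chow. Fgg stood at 2699, 2239 and 2499 CPM in HFHC against 3246, 2668 and 2793 CPM in Chow. For all 3 genes Chow replicate 7 was the highest library and HFHC replicate 2 the lowest. So it was in much of the set (16 and 15 of the 25 genes with at least 50 CPM), and such counts were not taken over all genes. The log2 fold changes were -0.14 ± 0.10 for Fga, -0.23 ± 0.11 for Fgb and -0.23 ± 0.11 for Fgg (adjusted p = 0.464, 0.249 and 0.259). Intervals of the fold ran from 0.783 to 1.06, 0.725 to 1.008 and 0.720 to 1.013. The 3 genes summed to 10108 ± 885 CPM in HFHC against 11523 ± 873 CPM in Chow. On that scale the diets just failed to overlap (10968 CPM at most in HFHC, 10993 CPM at least in Chow), and without TMM scaling they overlapped. In TPM, Fgb stood at 0.521 to 0.594 of Fga and Fgg at 0.867 to 1.001 of Fga over the 6 libraries. F13b, the carrier subunit of the factor that cross-links fibrin, had a log2 fold change of -0.09 ± 0.08.

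**Figure D3:**
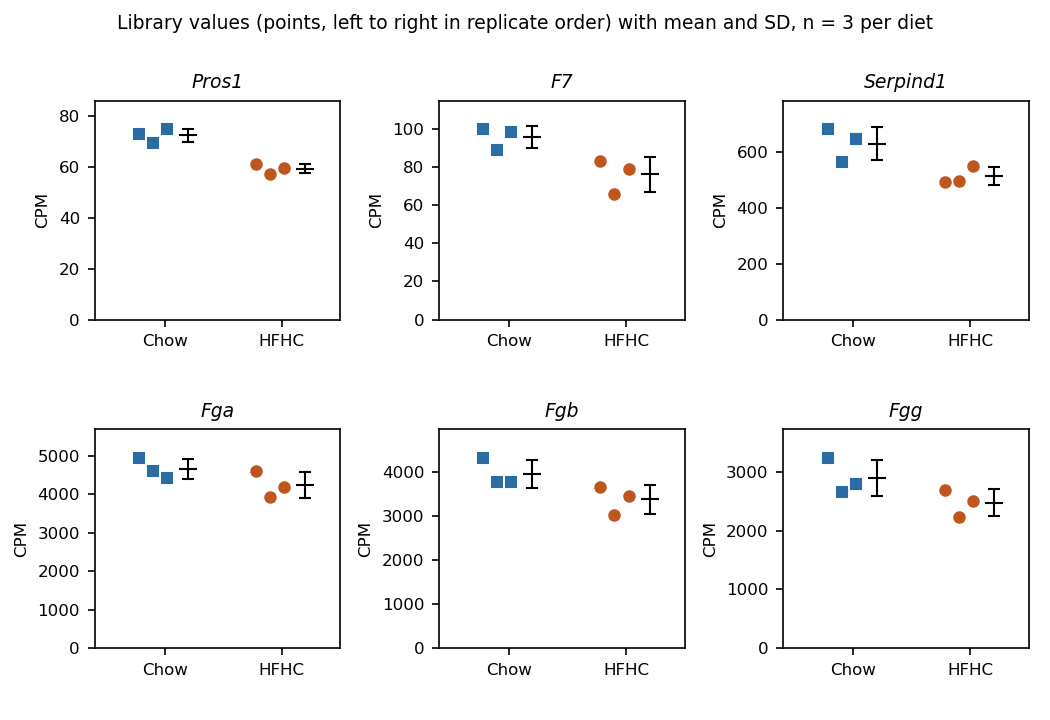
CPM on TMM-scaled library sizes of Pros1, F7, Serpind1, Fga, Fgb and Fgg in each library, with squares for Chow, circles for HFHC and mean and SD beside them. HFHC lies below Chow without overlap for Pros1, F7, Serpind1 and Fgb, and the libraries overlap for Fga and Fgg.

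The large cofactors and their carrier did not pass. F5, for factor V, the cofactor of factor Xa, stood at 636 ± 40 CPM in HFHC against 631 ± 23.8 CPM in Chow, with a fold of 1.008 (interval 0.885 to 1.147). F8, for factor VIII, the cofactor of factor IXa, stood at 19.6, 22.5 and 21.7 CPM in HFHC against 23.9, 22.8 and 23.7 CPM in Chow, each HFHC library below each Chow library by a small step (-0.14 ± 0.09). Vwf, whose product carries factor VIII in plasma, stood at 4.61, 5.41 and 3.05 CPM in HFHC against 4.32, 4.39 and 4.64 CPM in Chow. For Vwf, HFHC replicate 2 lay above the Chow range, replicate 3 below it and replicate 1 within it, and the interval of the fold was 0.721 to 1.33. The 12 vascular endothelial markers, none of which changed, summed to 82.0 to 99.7 CPM in HFHC and 86.2 to 91.0 CPM in Chow. The 14 sinusoidal endothelial markers, of which none passed, summed to 414 to 461 CPM and 452 to 457 CPM. Every HFHC library lay below Chow in 3 of the 14, against 14.3% over all genes. In both endothelial lists 0 genes had an unadjusted p under 0.05 in edgeR.

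In the contact phase and the kinin system, 0 of 5 genes passed in edgeR, DESeq2 or limma-voom, and 0 had an unadjusted p under 0.05 in edgeR. F12, which starts the contact phase, stood at 292 ± 13.6 CPM in HFHC against 281 ± 6.23 CPM in Chow (0.06 ± 0.08). F11, the next protease, stood at 80.0 ± 10 and 93.2 ± 13 CPM (-0.22 ± 0.12), and Klkb1, for plasma prekallikrein, at 449 ± 35.2 and 512 ± 58.4 CPM (-0.19 ± 0.10). F11 and Klkb1 are neighbours on chromosome 8 (45241174 to 45294859), and for both genes HFHC replicate 2 was the lowest library and Chow replicate 7 the highest. A gene model on the same strand, Gm45753, overlaps 43.2% of the exonic bases of Klkb1 and held 3.68 to 38.3 counts a library.

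Kng1 and Kng2 encode kininogens, the source of bradykinin, and are near copies of each other on chromosome 16. Their longest coding transcripts aligned over 2256 bases with 91.1% identity, and their counts were not whole numbers in any library, so the split between them is uncertain. Kng1 stood at 1428 ± 80.7 CPM in HFHC against 1480 ± 106 CPM in Chow, and Kng2 at 191 ± 5.31 and 193 ± 14.6 CPM. Summed, they stood at 1619 ± 85.9 and 1673 ± 120 CPM, with overlapping libraries, and Kng2 made up 11.4% to 12.2% of the sum in every library. Neither the sum nor the split set the diets apart.

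Of the 5 serpins that inhibit clotting or contact enzymes, 4 were tested and 0 passed in edgeR, DESeq2 or unweighted limma-voom, with 1 (Serpind1) at an unadjusted p under 0.05. Serpind1, for heparin cofactor II, which inhibits thrombin, stood at 493, 497 and 551 CPM in HFHC against 682, 564 and 647 CPM in Chow. The diets did not overlap, and Chow replicate 8 came closest to HFHC. Its log2 fold change was -0.30 ± 0.10 (adjusted p = 0.103), and it passed with limma-voom with sample weights (adjusted p = 0.0303) and after correction for GC content and length (0.0436). Serpinc1, for antithrombin, the main plasma inhibitor of thrombin and factor Xa, had overlapping libraries and a fold of 0.943 (interval 0.829 to 1.07). A gene on the opposite strand, Zbtb37, covers 34.4% of the exonic bases of Serpinc1 and held 216 to 265 counts a library, against at least 42796 for Serpinc1. Serping1, for C1 inhibitor, which also blocks kallikrein and factor XIIa, had a fold of 0.972 (interval 0.863 to 1.096). Serpina10, the inhibitor that works with protein Z, had a log2 fold change of -0.14 ± 0.09. Serpina5, for protein C inhibitor, held 12, 9 and 8 counts in HFHC and 7, 6 and 4 in Chow. In CPM its HFHC libraries lay just above Chow (0.268 at least against 0.265 at most). The count filter left it out, and it did not pass with DESeq2 or with no filter, where it was kept.

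Tissue factor and its vessel wall controls were scarce in liver RNA. F3 stood at 3.5, 4.03 and 3.45 CPM in HFHC against 2.69, 3.95 and 1.58 CPM in Chow. The Chow libraries spread widely, with Chow replicate 9 lowest and Chow replicate 8 within the HFHC range. The log2 fold change was 0.41 ± 0.27 (adjusted p = 0.424), with an interval of the fold from 0.870 to 2.04, and it ran from 0.14 without Chow replicate 9 to 0.78 without Chow replicate 8. Tfpi, for the inhibitor of the tissue factor complex, stood at 7.11 ± 0.329 CPM in HFHC against 7.70 ± 0.398 CPM in Chow. Thbd, for thrombomodulin, which turns thrombin toward protein C, stood at 3.81 ± 0.526 and 3.89 ± 0.416 CPM.

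In fibrinolysis 0 of 6 genes passed in edgeR, DESeq2 or limma-voom, with 1 (Cpb2) at an unadjusted p under 0.05 in edgeR. Plg, for plasminogen, stood at 2253, 2044 and 2173 CPM in HFHC against 2530, 2221 and 2308 CPM in Chow, with overlap and a fold of 0.917 (interval 0.797 to 1.05). Its inhibitor alpha-2-antiplasmin, from Serpinf2, had a fold of 0.920 (interval 0.776 to 1.09). Cpb2, for the carboxypeptidase that protects fibrin from plasmin, stood at 259, 240 and 284 CPM in HFHC against 305, 300 and 289 CPM in Chow. These did not overlap, but the log2 fold change of -0.19 ± 0.09 did not pass (adjusted p = 0.221). Hrg, which binds plasminogen and heparin, likewise had no overlap (544 ± 17.7 against 604 ± 44 CPM) and did not pass (-0.15 ± 0.08, adjusted p = 0.330).

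The plasminogen activators were the 2 lowest genes of this group. Plat, the tissue-type activator, held 18, 24 and 16 counts in HFHC and 8, 14 and 9 counts in Chow. In CPM every HFHC library lay above every Chow library (0.536 CPM at least against 0.507 CPM at most), and the log2 fold change of 0.70 ± 0.33 did not pass (adjusted p = 0.257, interval of the fold 0.965 to 2.72). Plau, the urokinase-type activator, held 52, 73 and 65 counts in HFHC and 43, 60 and 29 in Chow, with overlap in CPM and a log2 fold change of 0.33 ± 0.26. For F3 and Plau, Chow replicate 9 was the lowest library.

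Across the 32 tested genes the highest and lowest levels fell unevenly over the libraries. Chow replicate 7 held the highest level of 18 genes and HFHC replicate 2 the lowest of 15. The same counts were not taken over all genes, so they cannot be read as a trait of this set. Within the diets the members' median level was 104% of the diet mean in Chow replicate 7, 95.05% in Chow replicate 8 and 96.8% in HFHC replicate 2. Without Chow replicate 7 the median log2 fold change was -0.07 with 9 positive genes, and without Chow replicate 8 it was -0.13 with 5. For the 25 genes with at least 50 CPM the coefficient of variation between mice had a median of 6.29% in HFHC and 6.76% in Chow, and for the 7 scarcer tested genes of 13.8% and 10.7%.

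Some genes that act around these proteins changed. Of 38 other haemostasis genes chosen for their role, 30 were tested, 4 rose, 1 fell and 25 did not pass, where 6.67% of all genes tested passed. Their median log2 fold change was 0.08, against -0.0033 over all genes tested, and 12 of 30 had an unadjusted p under 0.05, against 22.2% over all genes. The genes that rose were S100a10, Anxa2, Hgfac and F2r, and the gene that fell was Fgl1. The carboxylase of the vitamin K cycle, Ggcx, and the reductase Vkorc1 did not pass (-0.03 ± 0.08 and 0.06 ± 0.09). The related reductase gene Vkorc1l1 lay higher in HFHC without overlap (62.1 ± 5.67 against 50.7 ± 4.77 CPM) and did not pass either (0.29 ± 0.10, adjusted p = 0.115).

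S100a10 and Anxa2 encode the subunits of a cell surface complex known to bind plasminogen and its tissue-type activator. S100a10 stood at 117, 130 and 125 CPM in HFHC against 64.4, 71.7 and 82.0 CPM in Chow, with no overlap (0.77 ± 0.10, adjusted p = 0.00303), and it passed under all 15 alternatives listed in the methods. Anxa2 stood at 11.6, 17.9 and 10.96 CPM in HFHC against 8.53, 7.79 and 8.44 CPM in Chow, also with no overlap (0.71 ± 0.18, adjusted p = 0.0476). HFHC replicate 2 was the highest library for both genes. The call of Anxa2 was lost on leaving out any 1 library except HFHC replicate 3 (adjusted p = 0.0638 to 0.127), with limma-voom (0.0656) and after correction for GC content and length (0.0620). Without HFHC replicate 2 its log2 fold change was 0.45.

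Hgfac, F2r and Fgl1 completed the changes. Hgfac, for a secreted protease related to factor XII that activates hepatocyte growth factor, stood at 158 ± 16.5 CPM in HFHC against 108 ± 8.24 CPM in Chow (0.55 ± 0.10, adjusted p = 0.0133). F2r, for the thrombin receptor PAR1, stood at 54.2, 61.0 and 61.8 CPM in HFHC against 47.5, 45.0 and 42.9 CPM in Chow (0.39 ± 0.08, adjusted p = 0.0270). Fgl1, for a liver-made protein related to fibrinogen, stood at 91.7, 95.7 and 131 CPM in HFHC against 193, 175 and 170 CPM in Chow (-0.76 ± 0.13, adjusted p = 0.0114), on chromosome 8 at 41191434 to 41215156. For each of these genes the diets did not overlap. Fgl1 passed under all 15 alternatives, with log2 fold changes of -0.93 to -0.66. The call of Hgfac was lost without HFHC replicate 1 (adjusted p = 0.0530) or Chow replicate 7 (0.0683) or 9 (0.0544). The call of F2r was lost without HFHC replicate 2 (0.0835) or 3 (0.0640) or Chow replicate 7 (0.0723) or 9 (0.108). Thbs1, for thrombospondin 1, and Plaur, the urokinase receptor, named after their values were seen, had log2 fold changes of 1.45 ± 0.41 (adjusted p = 0.0648) and 0.88 ± 0.42 (0.261).

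**Figure D4:**
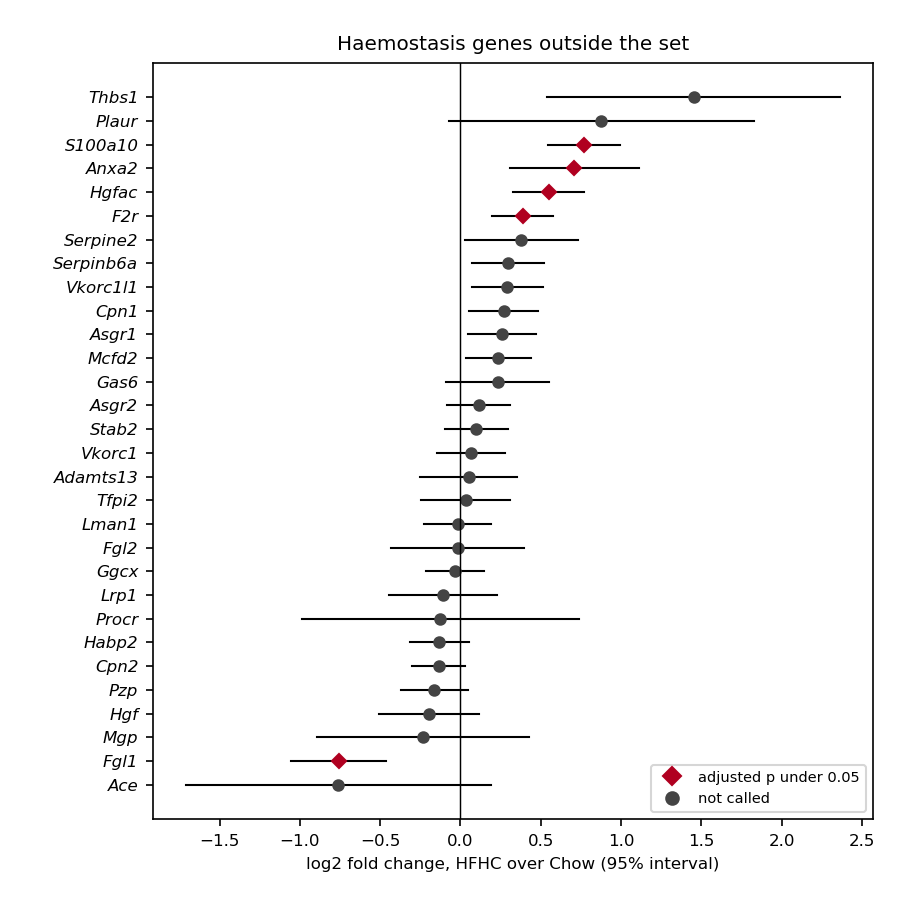
Log2 fold change, HFHC over Chow, with 95% intervals for the 30 tested haemostasis genes outside the set of 33, sorted by value. Diamonds mark the 5 genes with an adjusted p under 0.05, S100a10 highest of them at 0.77 and with Fgl1 at -0.76 the only one lower.

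**Figure D5:**
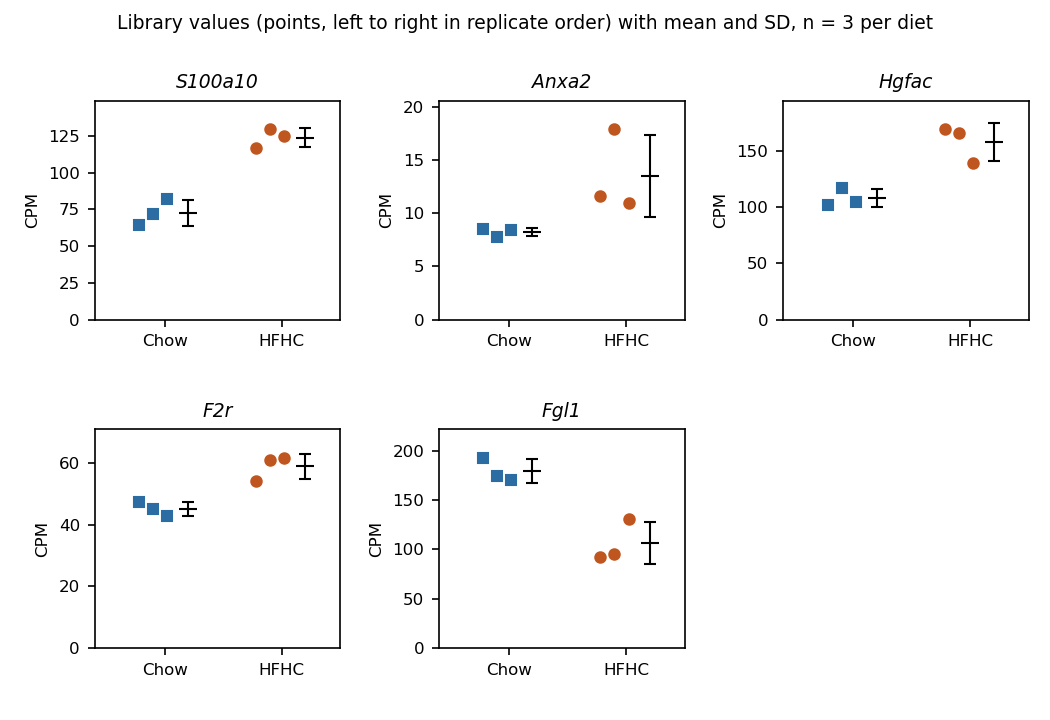
CPM on TMM-scaled library sizes of the 5 changed haemostasis genes outside the set in each library, with squares for Chow, circles for HFHC and mean and SD beside them. The diets do not overlap in any panel, and HFHC replicate 2 (middle circle) is highest for S100a10 and Anxa2.

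Markers of other liver cells are given because S100a10, Anxa2, F2r, F3, Plat and Plau are also made outside hepatocytes. In the Kupffer cell and macrophage list 0 of 12 genes passed in edgeR, and 5 had an unadjusted p under 0.05, against 22.2% over all genes. Every HFHC library lay above Chow in 5 of the 12, against 13.5% over all genes. The list summed to 381 to 467 CPM in HFHC and 331 to 392 CPM in Chow. The 12 stellate cell and fibroblast markers summed to 266 to 321 and 269 to 312 CPM, and the 7 mesothelial markers to 4.10 to 10.6 and 5.84 to 11.999 CPM. In either list 0 were called by edgeR, and 3 and 1 genes had an unadjusted p under 0.05, against 22.2% over all genes. Of 10 platelet and megakaryocyte markers 3 were tested and 0 called, with Pf4 at 0.445 ± 0.081 CPM in HFHC against 0.436 ± 0.066 CPM in Chow. The list summed to 5.60 to 5.82 and 5.95 to 6.22 CPM. It was led by Itgb3 (3.10 ± 0.195 against 3.47 ± 0.258 CPM) and Itga2b (1.83 ± 0.198 against 1.88 ± 0.162 CPM). Of 7 tested blood markers 1 was called, where 6.67% of all genes tested passed, and 2 had an unadjusted p under 0.05. The called gene, Hba-a1, was higher in HFHC (32.1 ± 1.39 against 24.8 ± 1.22 CPM, adjusted p = 0.0278). Its near copy, Hba-a2, did not pass (0.30 ± 0.11, adjusted p = 0.139). Within the stellate cell and fibroblast list, Col1a1 stood at 7.47, 10.6 and 3.79 CPM in HFHC against 3.30, 4.28 and 3.32 CPM in Chow (1.006 ± 0.32, adjusted p = 0.0952). Col3a1 stood at 43.7, 51.0 and 23.4 CPM in HFHC against 23.4, 26.8 and 22.0 CPM in Chow (0.71 ± 0.24, adjusted p = 0.109). Neither passed, and both were highest in HFHC replicate 2, as were S100a10 and Anxa2. The third gene of that list under 0.05 unadjusted, Hhip, lay lower in HFHC without overlap (-0.45 ± 0.15, adjusted p = 0.113). Over the 12 markers the median log2 fold change was 0.01. Every HFHC library lay above Chow in 0 of them and below in 2, against 13.5% and 14.3% over all genes. The part of these cells in the results above was not tested.

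Among 23 regulators of liver plasma protein genes, Ppara rose and Esr1 fell, where 6.67% of all genes tested passed. Ppara, a nuclear receptor for fatty acids, stood at 126, 178 and 102 CPM in HFHC against 73.9, 83.4 and 83.2 CPM in Chow (0.76 ± 0.17, adjusted p = 0.0330), and Esr1, the estrogen receptor, at 14.1 ± 1.21 and 19.4 ± 2.68 CPM (-0.47 ± 0.12, adjusted p = 0.04996). The call of Ppara was lost without HFHC replicate 1 (0.0679) or Chow replicate 7 (0.123) or 9 (0.0814), and that of Esr1 in 13 of 15 alternatives. Of 22 other secreted plasma protein and acute phase genes, Saa2 rose and C3 and Itih3 fell, again beside 6.67% of all genes tested. Their median log2 fold change was -0.09, next to -0.10 for the coagulation and fibrinolysis genes. Every HFHC library lay below Chow in 8 of the 22 and above in 2, against 14.3% and 13.5% over all genes. At an unadjusted p under 0.05 there were 13 of 22, against 22.2% over all genes. Saa2, an acute phase apolipoprotein, stood at 21.4, 23.0 and 24.1 CPM in HFHC against 7.55, 6.71 and 6.84 CPM in Chow, while the fibrinogen genes, also known as acute phase genes, did not pass. Leaving out Chow replicate 7 ended the calls of C3 (0.0568) and Itih3 (0.0755), and leaving out HFHC replicate 2 ended the call of Itih3 (0.0579). Saa2 has a near copy, Saa1, and its counts were not whole, so reads may be split between them. Alb, the most abundant gene, had a log2 fold change of 0.02 ± 0.12.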

How the data were processed

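The authors deposited estimated counts per gene, not normalized, from 6 mouse liver libraries, of which 22.4% were not whole (tolerance 0.01). Per the labels' protocols, total RNA was depleted of ribosomal RNA and made into stranded TruSeq libraries. Per the submitters' processing notes, STAR 2.7.3a and Partek 9 were used with mm10. Counting settings, strand among them, were not stated in these sources. The counts of Alb were written by the authors to fewer digits than the others. Of 20107 genes, 19892 matched GENCODE M21 annotation, each with an end 1 base past it, and that base was removed from printed coordinates.

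Counts were rounded and filtered with filterByExpr (minimum count 10), leaving 14896 genes, and tested with edgeR 4.0.16 (TMM, quasi-likelihood F test, Benjamini-Hochberg over all genes). The SE was the size of the log2 fold change divided by the square root of F. Intervals used its t distribution. The common biological coefficient of variation was 0.121. Replicate pairs within a diet differed beyond counting noise (chi-square per degree of freedom 16.5 to 32.3). P values judge the diet difference against the spread between these mice, which the fit estimates with help from all genes tested.

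Alternatives were median-of-ratios, upper-quartile and top-10-removed scaling, 2 other filters, DESeq2 1.42.0, limma-voom (limma 3.58.1) with and without sample weights, each library left out, and a correction for a trend on GC content and length, 15 in all, plus a threshold of 0.01. Running them for lists outside the set was chosen after seeing the data. The fit was tested on simulated data, where it called 1 of 50 genes changed by 1.25-fold, 26 of 50 by 1.5-fold and 38 of 50 by 2-fold. Not passing therefore does not show that a gene was unchanged. For the genes of the set, the intervals bound the fold more closely than these simulated counts. Taken 1 gene at a time, they lay within 1.5-fold in either direction in 29 of 32 genes. Promoters were searched with Python 3.11.15, and Kng1 and Kng2 transcripts compared with blastn 2.17.0. The members and lists were chosen with earlier results of these data known. Named genes were all members and, of each other list, up to 6 changed genes by smallest p, with Alb, Pf4 and Hba-a1 as defining markers. Ggcx, the Vkorc1 genes, Thbs1, Plaur, Cps1, Tat, Col1a1, Col3a1, Hhip, Itgb3 and Itga2b fall outside that rule and were chosen after their values were seen. A gene of the other haemostasis list is not reported here and is left out of its counts.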

Additional observations from a re-analysis of the deposited data

How the results depend on the processing

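No paired analysis was possible because the labels give no pairing or litter of each mouse. The diets also share no replicate number. Over all genes 994 passed, with 361 to 1080 when 1 library was left out, 1494 with weighted limma-voom and 282 at an adjusted p under 0.01. Of the 33 coagulation and fibrinolysis genes 1 passed (Pros1). The count was 0 to 0 when 1 library was left out, 0 with upper-quartile factors, 0 with no count filter (4 at an unadjusted p under 0.05 in each of these), 0 at 0.01, 2 with weighted limma-voom (Pros1 and Serpind1) and 2 after GC and length correction (F7 and Serpind1). At an unadjusted p under 0.05 the leave-one-out fits held 2 to 9 members. No member passed as higher in any of these fits. The trend could be taken out for all 32 tested members. For other haemostasis genes 5 passed, 2 to 4 when 1 library was left out (3 without HFHC replicate 1, 2 without Chow replicate 7 and 2 without Chow replicate 9) and 1 at 0.01.

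For regulators 2 passed, 0 to 5 when 1 library was left out, 1 with median-of-ratios size factors, upper-quartile factors, no top 10 genes, no count filter, the stricter filter, limma-voom or GC and length correction, 4 with DESeq2 and 0 at 0.01. For other plasma protein genes 3 passed, 2 to 4 when 1 library was left out, 5 with DESeq2, 6 after GC and length correction and 1 at 0.01. The causes were not tested. Without TMM scaling the HFHC minus Chow difference of the fibrinogen sum was -1188 in place of -1415 CPM. Scaling moved the median of all genes by at most 0.03 (log2). Serpina5 (4 to 12 counts) and Plat (8 to 24 counts) rest on the fewest counts.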
